A study of Mus musculus with 18 samples.

Results

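The genes described here are 10 nuclear genes whose products transcribe, copy or regulate the mitochondrial genome or hold its transcripts: Tfam, Tfb1m, Tfb2m, Polrmt, Polg, Polg2, Lrpprc, Slirp, Nrf1 and Ppargc1a. They were taken by symbol from a deposited table of 53465 genes, in which each symbol matched 1 row. Beside them stands the share of each library's counts that fell on the 13 protein genes encoded by mitochondrial DNA (mtDNA) itself. The counts came from microglia and macrophages sorted on CD45, CD11b and F4/80 from the contused spinal cords of 9 female C57BL/6J mice aged 8 to 10 weeks. Each mouse gave 1 library of each cell type, 18 in all. Mice 1, 2 and 3 received PBS, mice 5, 6 and 7 received 100 ng of recombinant IL-13 and mice 8, 9 and 10 received 100 ng of recombinant IL-4, given into the cord 48 h after injury. Cells were taken from the cord 24 h after that injection. All groups therefore share the injury and an intraspinal injection, and each of the 6 groups holds 3 mice. IL-4 and IL-13 are type 2 cytokines that turn myeloid cells towards an anti-inflammatory state, and the study asked how their effects on these cells differ.

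Mitochondrial DNA carries a small set of genes, all for the respiratory chain, its ATP synthase and the RNAs that translate them. It is transcribed by its own RNA polymerase, POLRMT, together with TFAM, which bends and packages the DNA, and TFB2M, which opens it at the promoter. The DNA is copied by polymerase gamma, of which POLG is the catalytic and POLG2 the accessory subunit, and TFAM is widely used as an index of how many copies a cell keeps. LRPPRC and SLIRP form a complex that protects mitochondrial mRNAs, TFB1M methylates the small mitochondrial rRNA, and NRF1 and the coactivator PGC-1alpha, encoded by Ppargc1a, switch on the nuclear genes of this machinery. In macrophages, alternative activation by IL-4 is known for its reliance on oxidative metabolism.

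The libraries held between 35961305 and 45849829 counts. Summed levels of 8 microglia markers were higher in microglia than in macrophages with each treatment, at 5501 to 9984 CPM (counts relative to the library total) against 2613 to 3729 with PBS, and the 8 monocyte-derived macrophage markers were higher in macrophages, at 2438 to 2889 against 766.9 to 970.1 with PBS. The microglia libraries also held 8 fibroblast and pericyte markers at 206.3 to 7279 CPM and 6 endothelial markers at 806.3 to 2694 CPM, against 0.307 to 9.17 and 18.6 to 426.6 CPM in macrophages. These markers are in every comparison between the cell types, and their part in the results was not tested. The IL-13 microglia of mouse 6 stood apart with 7279 CPM of fibroblast and pericyte markers, where the other 2 IL-13 microglia libraries had 1740 and 1171. Levels throughout are CPM on total counts scaled by edgeR's TMM factors over the 18 libraries. In bulk samples, a change in the cells that make up a sort cannot be told apart from a change in RNA per cell.

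Of the 10 genes, 9 were detected in all 18 libraries and passed edgeR's filter on low counts in all 12 comparisons. Per length, in CPM per kb of the principal transcript, Nrf1 had the highest mean over the 9 macrophage libraries, at 19.7, followed by Lrpprc at 16.7, Slirp at 10.2, Tfb2m at 7.41, Polg at 6.47, Polrmt at 5.59, Tfb1m at 4.59, Tfam at 4.12 and Polg2 at 1.76. Neighbours in this order overlapped between libraries, except that Polg2 lay below the other 8 genes in every macrophage library. In microglia the means were 18.5 for Nrf1, 15.4 for Lrpprc, 9.71 for Tfb2m, 8.92 for Slirp, 5.30 for Polg, 5.18 for Polrmt, 5.09 for Tfam, 4.98 for Tfb1m and 2.76 for Polg2, so that the same genes stood at the top and at the bottom. The catalytic subunit gene Polg thus exceeded the accessory subunit gene Polg2 in the means of both cell types. Both orders rest on 1 transcript length per gene, and which transcripts the cells made was not tested. By CPM alone Lrpprc stood above Nrf1, with medians of 74.6 against 36.4 CPM in macrophages and 70.6 against 36.1 CPM in microglia. Of the genes, 4 (Tfb1m, Polg, Polg2 and Slirp) share exonic bases with a neighbour on the other strand, Slirp with 2 of them, and the libraries do not keep strand. The longest shared stretch is 2403 bases between Slirp and Snw1, followed by 398 between Polg and Fanci, so that the level of Slirp in particular may hold reads of its neighbour.

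The start sites of these genes bear on the list because NRF1, one of its members, acts on the promoters of others. RefSeq promoter windows (GRCm38.p6, 250 bases before to 50 after the start) matched all 10 symbols with 11 windows, and 4 motifs were searched on both strands. The NRF1 core, searched as GCGCATGCG or GCGCACGCG, was found in 3.36% of all 32851 windows and in those of Tfb2m and Polrmt. The core of ETS factors such as GABP, searched as CCGGAAGT, was found in 3.89% of all windows and in those of Tfam and Polg. The core of YY1, searched as AAGATGGCG, was found in 1.4% of all windows and in that of Slirp, and the estrogen-related receptor element, searched as TCAAGGTCA, in 0.423% of all windows and in none of the 11. The stretches of 30 bases around the matches are given 5′ to 3′ on the strand of the gene, with the matched letters in capitals. They are chr1:179546245-179546274 (minus strand) for Tfb2m, chr10:79746564-79746593 (minus) for Polrmt, chr10:71238073-71238102 (minus) for Tfam, chr7:79466293-79466322 (minus) for Polg and chr12:87443800-87443829 (plus) for Slirp. In Polrmt 2 matches overlap across the start site.
Tfb2m: ctaggtcgttCGCATGCGCcattcgtaatg
Polrmt: caggcggCGCGTGCGCGTGCGCactgcggg
Tfam: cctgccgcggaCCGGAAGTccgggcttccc
Polg: gaggacctcacCCGGAAGTccctctgcacc
Slirp: ccacagcagcCGCCATCTTccccatctcga

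No member was differentially expressed (DE) with either cytokine, in either cell type, at an adjusted p of 0.05 over all genes tested. In microglia, edgeR's quasi-likelihood test called 0 of 9 between IL-4 and PBS, where 2.22% of all genes were called, 0 of 9 between IL-13 and PBS, where 0.366% were, and 0 of 9 between IL-4 and IL-13, where 0.0385% were. In macrophages it called 0 of 9 between IL-4 and PBS, against 14% of all genes, 0 of 9 between IL-13 and PBS, against 4.19%, and 0 of 9 between IL-4 and IL-13, against 0.25%. At an unadjusted p under 0.05 it found 1 member in each of the comparisons of IL-4 and IL-13 with PBS in macrophages, Tfb1m, and 0 in the other 4. DESeq2's Wald test also called 0 of 9 in each of the 6 comparisons, with 1 member at an unadjusted p under 0.05 for IL-13 against PBS in microglia and 1 in each comparison with PBS in macrophages. At the background share, fewer than 1 gene in 9 would be called in 5 of these comparisons and little more than 1 with IL-4 in macrophages, so that the counts of 0 say little about the members as a group. The precision differed between the cell types. In macrophages, the 95% interval of the log2 fold change with IL-4 lay within a 2-fold change in either direction for all 9 tested members, with a median half-width of 0.37, and in microglia for 4, Tfam, Polrmt, Lrpprc and Slirp, with a median half-width of 0.82. The intervals of the other 5 in microglia reached past a 2-fold change.

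**Figure D1:**
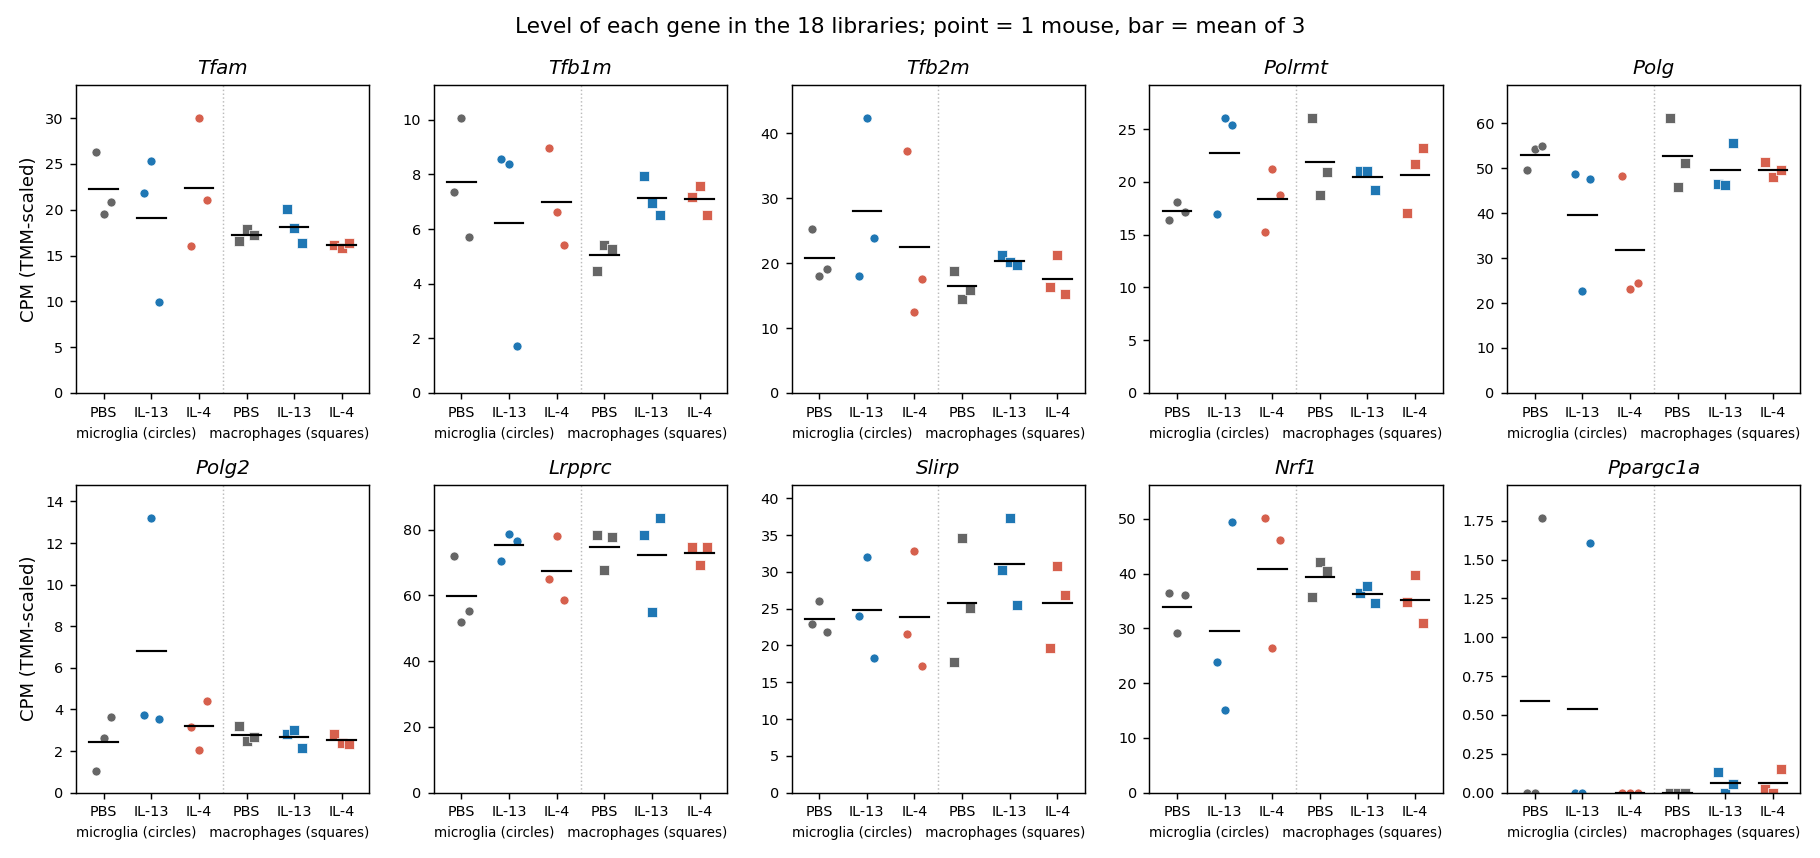
Level of each of the 10 genes in the 18 libraries, in CPM on TMM-scaled totals (linear axes from 0), with 1 point per mouse and a bar at the mean of the 3 mice. Points of microglia scatter more widely than those of macrophages for most genes, and Ppargc1a is at 0 in most libraries.

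Tfam (ENSMUSG00000003923.14, GRCm38 chromosome 10 from 71225464 to 71238280), the packaging and transcription factor, did not pass the test with either cytokine. Its level was 26.4, 19.6 and 20.9 CPM in the microglia of mice 1, 2 and 3 (PBS) and 16.01, 30.03 and 21.1 CPM in those of mice 8, 9 and 10 (IL-4). The IL-4 libraries lay on both sides of the PBS libraries, with a log2 fold change of 0.03 ± 0.37 (SE) and a 95% interval from -0.79 to 0.86 (adjusted p = 0.989, edgeR). With IL-13 it was 21.9 and 25.4 CPM in mice 5 and 6 but 9.94 CPM in mouse 7, the lowest of all 18 libraries. In macrophages, the values were much closer together, at 16.6 to 17.9 CPM with PBS, 16.3 to 20.1 with IL-13 and 15.8 to 16.4 with IL-4. The IL-4 and PBS macrophage groups did not overlap, yet the difference was only -0.10 ± 0.14 on the log2 scale (95% interval -0.40 to 0.20).

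Polrmt (ENSMUSG00000020329.12, chromosome 10 from 79736123 to 79746581), the RNA polymerase of mtDNA, was at 16.4, 18.1 and 17.2 CPM in PBS microglia and at 15.2, 21.3 and 18.8 CPM in IL-4 microglia. These groups overlapped, and the log2 fold change was 0.12 ± 0.24 (95% interval -0.43 to 0.67). In IL-13 microglia it was at 17.0, 26.0 and 25.4 CPM, a log2 difference of 0.41 ± 0.24 from PBS that did not pass the test (adjusted p = 0.849, edgeR). Tfb2m (ENSMUSG00000026492.11, chromosome 1 from 179528055 to 179546267), whose product opens the promoter, was at 25.3, 18.03 and 19.1 CPM in PBS microglia and at 37.3, 12.4 and 17.6 CPM in IL-4 microglia, so that the IL-4 libraries lay both above and below all PBS libraries. The log2 fold change with IL-4 was 0.13 ± 0.44 (95% interval -0.85 to 1.11). In the macrophages of the same mice, both genes moved little with IL-4, by -0.09 ± 0.17 for Polrmt and 0.10 ± 0.17 for Tfb2m on the log2 scale. Tfb2m was at 19.7 to 21.3 CPM in IL-13 macrophages and at 14.6 to 18.8 in PBS macrophages. These groups did not overlap, as was the case for 24.5% of all genes tested there, and the log2 difference of 0.32 ± 0.17 had an adjusted p of 0.377 (edgeR).

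Tfb1m (ENSMUSG00000036983.6, chromosome 17 from 3519256 to 3557781), the rRNA methyltransferase that is a paralog of Tfb2m, had the lowest p of the members in macrophages against PBS, with either cytokine. Its level was 4.47, 5.43 and 5.28 CPM with PBS, 7.18, 7.57 and 6.50 CPM with IL-4 and 7.95, 6.97 and 6.51 CPM with IL-13. Every cytokine library lay above every PBS library, and the IL-4 and IL-13 libraries overlapped. The log2 fold change was 0.49 ± 0.19 with IL-4 (unadjusted p = 0.0270, adjusted p = 0.119, edgeR) and 0.50 ± 0.19 with IL-13 (unadjusted p = 0.0232, adjusted p = 0.189). Both comparisons used the same PBS libraries. DESeq2's lowest adjusted p among the members was 0.0695 with IL-4 and 0.105 with IL-13. In microglia, the same gene was at 7.36, 10.1 and 5.72 CPM with PBS and at 8.96, 6.64 and 5.41 CPM with IL-4, a log2 difference of -0.11 ± 0.60. IL-13 microglia had 8.56 and 8.4 CPM in mice 5 and 6 and 1.73 CPM in mouse 7, the mouse in which Tfam was also lowest.

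The groups of PBS and cytokine libraries did not overlap for 2 of 9 members with IL-4 in macrophages (Tfam and Tfb1m, background 34.7% of all genes tested), for 2 with IL-13 in macrophages (Tfb1m and Tfb2m, background 24.5%), for 1 with IL-4 in microglia (Polg, background 25.9%) and for 1 with IL-13 in microglia (Polg, background 16%). Between IL-4 and IL-13 all 9 overlapped in each cell type, where 12.3% of all genes did not in microglia and 14.4% in macrophages. The counts of the members lay near or under what these backgrounds give for 9 genes.

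Polg (ENSMUSG00000039176.17, chromosome 7 from 79446231 to 79466362), the catalytic subunit of the DNA polymerase, was at 49.6, 54.3 and 55.0 CPM in PBS microglia. With IL-4 it was at 48.2 CPM in mouse 8 and at 23.1 and 24.4 CPM in mice 9 and 10, and with IL-13 at 48.9 and 47.6 CPM in mice 5 and 7 and at 22.7 CPM in mouse 6. All 6 cytokine libraries lay below the 3 PBS libraries, 3 of them just below and 3 far below. The log2 fold change with IL-4 was -0.71 ± 0.36 (95% interval -1.51 to 0.09, adjusted p = 0.368, edgeR). Its p was the lowest of the members in that comparison and did not pass the test. In the macrophages of the same mice, Polg was at 45.9 to 61.2 CPM with PBS, 46.3 to 55.7 with IL-13 and 48.1 to 51.4 with IL-4, with a log2 difference of -0.09 ± 0.15 between IL-4 and PBS. The cell type difference of the IL-4 response of Polg was -0.65 ± 0.39 on the log2 scale (adjusted p = 0.580, edgeR), and -1.07 without the IL-4 microglia of mouse 8.

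Polg2 (ENSMUSG00000020718.12, chromosome 11 from 106768253 to 106779537), the accessory subunit, had the lowest mean level of the 9 genes in each cell type, though Tfb1m lay below it in the IL-13 microglia of mice 6 and 7, and it rested on 43 to 631 counts per library in microglia and 78 to 119 in macrophages. It was at 1.05, 2.61 and 3.63 CPM in PBS microglia, at 3.74, 13.2 and 3.53 CPM in IL-13 microglia and at 3.17, 2.07 and 4.43 CPM in IL-4 microglia. The 13.2 CPM came from mouse 6, the library with the most fibroblast and pericyte RNA, in which Tfb2m was also at its highest, 42.4 CPM, and Polg and Nrf1 at their lowest, 22.7 and 15.0 CPM. The log2 difference between IL-13 and PBS was 1.49 ± 0.76 (95% interval -0.22 to 3.19, adjusted p = 0.737, edgeR), and it was 0.59 without that library. In macrophages the level of Polg2 was between 2.17 and 3.20 CPM in all 9 libraries, with log2 differences of -0.15 ± 0.27 with IL-4 and -0.06 ± 0.27 with IL-13.

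Lrpprc (ENSMUSG00000024120.12, chromosome 17 from 84705247 to 84790789) and Slirp (ENSMUSG00000021040.15, chromosome 12 from 87443896 to 87452206), which together hold mitochondrial mRNAs, did not pass the test with either cytokine. Lrpprc was at 72.1, 51.8 and 55.2 CPM in PBS microglia, at 70.6, 78.8 and 76.5 CPM in IL-13 microglia and at 65.1, 78.1 and 58.7 CPM in IL-4 microglia. The log2 fold change was 0.20 ± 0.18 with IL-4 (95% interval -0.20 to 0.60) and 0.34 ± 0.18 with IL-13 (95% interval -0.06 to 0.74), neither past the test. In macrophages it was between 54.9 and 83.6 CPM, with log2 differences of -0.03 ± 0.17 with IL-4 and -0.04 ± 0.17 with IL-13. Slirp was at 22.9, 26.0 and 21.8 CPM in PBS microglia and at 21.6, 32.9 and 17.2 CPM in IL-4 microglia, and at 17.8, 34.7 and 25.1 CPM in PBS macrophages and 19.6, 30.8 and 26.8 CPM in IL-4 macrophages. In each cell type the IL-4 libraries spanned the PBS libraries or lay among them, with log2 differences of 0.05 ± 0.29 and -0.01 ± 0.25.

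Nrf1 (ENSMUSG00000058440.14, chromosome 6 from 30047988 to 30153458) was at 36.5, 29.2 and 36.1 CPM in PBS microglia, at 23.9, 15.0 and 49.5 CPM in IL-13 microglia and at 50.2, 26.5 and 46.1 CPM in IL-4 microglia. The cytokine libraries lay on both sides of the PBS libraries, and the log2 fold changes were 0.29 ± 0.41 with IL-4 and -0.19 ± 0.41 with IL-13. In macrophages Nrf1 was between 31.0 and 42.2 CPM, with log2 differences of -0.16 ± 0.14 with IL-4 and -0.11 ± 0.14 with IL-13. Ppargc1a (ENSMUSG00000029167.13, chromosome 5 from 51454250 to 51567726), the coactivator gene, was the member that failed edgeR's low-count filter in all 12 comparisons. It had no count in 12 of 18 libraries, 77 counts in the PBS microglia of mouse 3 (1.77 CPM), 82 counts in the IL-13 microglia of mouse 7 (1.61 CPM) and 6 counts or fewer in the 4 macrophage libraries where it was found. All 3 IL-4 microglia libraries had no count. A count of 0 allows up to 3 counts, 0.0574 to 0.101 CPM depending on the library, which covers counting error only. The 2 libraries with the most counts belong to different treatments, and no group was high as a whole, so that no comparison was made.

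**Figure D2:**
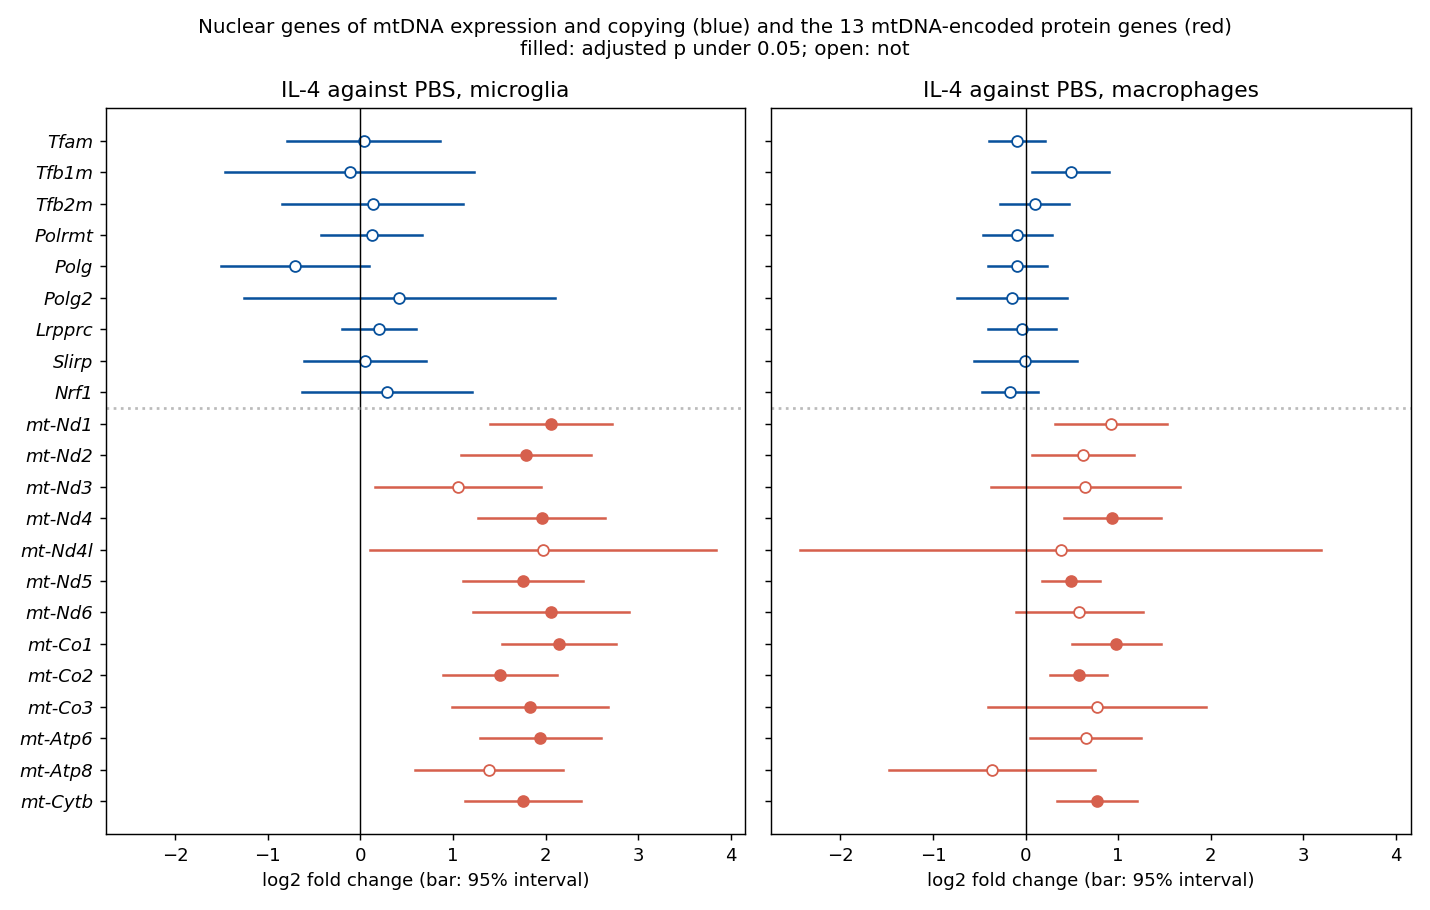
Log2 fold change between IL-4 and PBS with its 95% interval for the 9 tested nuclear genes (blue) and the 13 mtDNA-encoded protein genes (red) in microglia (left) and macrophages (right), with points filled where edgeR's adjusted p was under 0.05. Of the blue intervals, 1 (Tfb1m in macrophages) lies on one side of 0, while 10 red points are filled in microglia and 5 in macrophages.

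The genes that this machinery transcribes did differ with IL-4. The 13 mtDNA-encoded protein genes held 2.18%, 2.502% and 3.01% of all counts in PBS microglia, 3.53%, 3.28% and 3.41% in IL-13 microglia and 12.2%, 6.36% and 8.04% in IL-4 microglia. The IL-4 libraries thus lay well above the others, with a mean of 8.86% ± 3.00 (SD, n = 3) against 2.56% ± 0.417 with PBS. In macrophages, the share was 0.745%, 0.532% and 0.580% with PBS, 0.617%, 0.604% and 0.713% with IL-13 and 1.41%, 0.836% and 0.983% with IL-4. The difference between IL-4 and PBS was 6.30 percentage points in microglia and 0.459 in macrophages, for which the exact permutation test (two-sided) gave p = 0.1 in both, its minimum with 3 mice against 3. The macrophage difference was 0.291 points without IL-4 mouse 8. With the rRNA and tRNA genes included it was 0.302 points (exact permutation p = 0.4), and the groups then overlapped, as IL-4 mouse 9 (1.204%) lay below PBS mice 1 and 2 (1.498% and 1.296%). The IL-13 and PBS shares differed by 0.842 points in microglia (exact permutation p = 0.1), or 0.774 with the rRNA and tRNA genes included (exact permutation p = 0.3, groups overlapping), and by 0.0256 in macrophages (exact permutation p = 0.7).

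By gene, 10 of the 13 rose with IL-4 in microglia, with a median log2 fold change of 1.83 over the 13 against -0.06 over all genes tested, and 5 rose in macrophages, with a median of 0.65 against 0.02. Of all genes tested, 2.22% were called in microglia and 14% in macrophages, in either direction. In microglia mt-Co1, a catalytic subunit of cytochrome oxidase, rose by 2.14 ± 0.27 (SE) on the log2 scale (adjusted p = 0.00602, edgeR), and mt-Nd1, of complex I, by 2.06 ± 0.29 (adjusted p = 0.0101). In macrophages mt-Co1 rose by 0.98 ± 0.22 (adjusted p = 0.0143, edgeR). With IL-13 against PBS, edgeR called none of the 13 in either cell type, none had an unadjusted p under 0.05 and DESeq2 called none. Between IL-4 and IL-13 edgeR also called none, but 12 of 13 in microglia and 7 of 13 in macrophages had an unadjusted p under 0.05, and DESeq2 called 10 and 2. In microglia edgeR called 8 with all 18 libraries in one model and 7 without IL-4 mouse 9. For IL-4 against PBS in microglia, the count of 10 was 1 without PBS mouse 1 or 2 and 2 without PBS mouse 3, while the median log2 fold change of the 13 stayed at 1.73, 1.79 and 1.91. Calls over all genes fell in the same fits, from 345 to 81, 128 and 75. For IL-4 against PBS in macrophages, the count of 5 was 0 without PBS mouse 2 or 3, 2 without IL-4 mouse 8 or 10 and 8 without IL-4 mouse 9, and it was 1 with all 18 libraries in one model. The medians in these macrophage fits were 0.45 to 0.85. The IL-4 microglia libraries detected fewer genes, 15193 to 15626 against 17620 to 18371 in PBS microglia, whereas IL-4 macrophages had 17452 to 17529 against 17553 to 18174. IL-4 microglia also had lower summed microglia markers (2251 to 3848 CPM against 5501 to 9984 with PBS), lower fibroblast and pericyte markers (206.3 to 1489 against 2311 to 3188) and higher endothelial markers (1928 to 2571 against 806.3 to 1786), higher monocyte-derived macrophage markers (1149 to 1995 against 766.9 to 970.1) and lower neuron markers (4.65 to 4.84 against 10.4 to 16.1). In IL-4 macrophages, endothelial markers were at 196.2 to 426.6 CPM against 18.6 to 21.1 with PBS, astrocyte markers at 65.98 to 510.3 against 21.9 to 26.4, monocyte-derived macrophage markers at 6239 to 8081 against 2438 to 2889, microglia markers at 457.4 to 825.0 against 2613 to 3729, oligodendrocyte markers at 129.0 to 139.6 against 179.7 to 208.5, fibroblast and pericyte markers at 0.307 to 1.33 against 4.70 to 8.23 and neuron markers at 2.43 to 3.92 against 4.39 to 9.27. The part of these differences in the share was not tested. Nuclear copies of mtDNA sequence could also share reads with these genes.

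**Figure D3:**
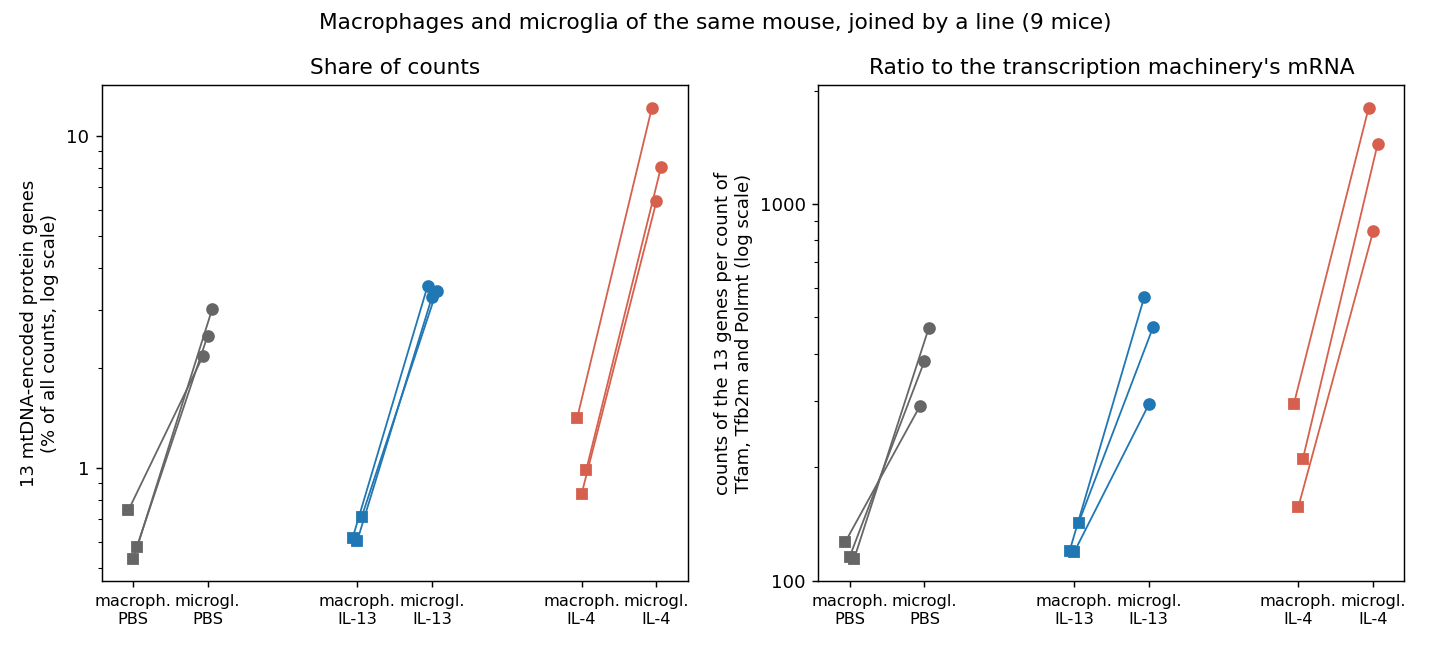
Share of all counts on the 13 mtDNA-encoded protein genes in percent (left) and counts of these genes per count of Tfam, Tfb2m and Polrmt together (right), on log axes, where a line joins the macrophages (square) and microglia (circle) of 1 mouse. Every line rises, and the 3 IL-4 mice have the highest point of each kind.

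The genes that initiate this transcription were set against its products as a ratio, chosen after the values were seen. Per count of Tfam, Tfb2m and Polrmt together, PBS microglia had 290.7, 382.5 and 469.6 counts of the 13 genes, IL-13 microglia 567.1, 293.7 and 472.7 and IL-4 microglia 1804, 847.6 and 1446. The lowest IL-4 library exceeded the highest library of the other groups, and the means differed 3.58-fold between IL-4 and PBS, close to the 3.46-fold difference of the shares themselves. In macrophages, the ratio was 114.2 to 126.4 with PBS, 118.8 to 142.2 with IL-13 and 157.2 to 295.1 with IL-4, a 1.86-fold difference of means between IL-4 and PBS. Both differences had an exact permutation p of 0.1, again the smallest possible. The ratio has the counts of the shares as its numerator, so that it is not a test apart from theirs. The summed level of the 3 genes was 57.4 to 68.5 CPM in IL-4 microglia and 55.7 to 68.1 CPM in PBS microglia.

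**Figure D4:**
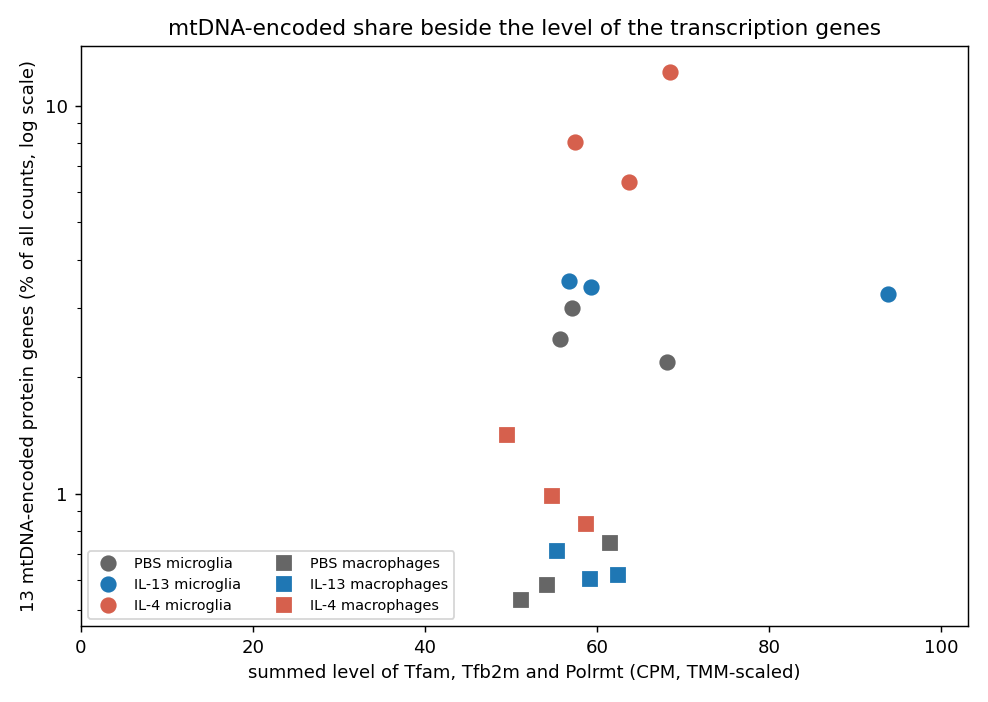
Share of counts on the 13 mtDNA-encoded protein genes (percent, log scale) against the summed CPM of Tfam, Tfb2m and Polrmt (linear scale from 0) in the 18 libraries. All libraries but 1 lie between 49.6 and 68.5 CPM on the horizontal axis while the share runs from 0.532% to 12.2%; the exception at 93.8 CPM is the IL-13 microglia of mouse 6.

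The cell types were also compared within the same mice. The mtDNA-encoded share was higher in microglia than in macrophages in 9 of 9 mice, 5.63-fold in the geometric mean, and an exact sign-flip permutation test of the log ratios gave p = 0.0039, its minimum with 9 mice. The ratio was 2.92, 4.70 and 5.19 in the PBS mice, 5.72, 5.43 and 4.78 in the IL-13 mice and 8.62, 7.598 and 8.18 in the IL-4 mice. The IL-4 ratios lay above all others and differed from the PBS ratios by 0.97 on the log2 scale (exact permutation p = 0.1, the smallest possible). By gene, edgeR called 11 of 13 higher in microglia with PBS, 13 with IL-4 and 9 with IL-13, where it called 40.9%, 23.4% and 26.7% of all genes in either direction. The cell type difference of the IL-4 response called 0 of the 13, with 10 at an unadjusted p under 0.05, and it called 3 with the mouse as a block and 3 by DESeq2. The fibroblast, pericyte and endothelial markers named above were also higher in microglia with each treatment. Markers of neutrophils were higher in macrophages with each treatment, at 166.0 to 2922 CPM against 17.1 to 150.0 in microglia, with the 2922 CPM in the IL-13 macrophages of mouse 6. The part of these markers in this difference was not tested.

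No member passed the test between the cell types. edgeR's quasi-likelihood test called 0 of 9 with PBS, where 40.9% of all genes were called, 0 of 9 with IL-4, where 23.4% were, and 0 of 9 with IL-13, where 26.7% were. At an unadjusted p under 0.05 there was also none, and DESeq2's Wald test called none, with 1 at an unadjusted p under 0.05 with IL-13. Groups that did not overlap were found for 3 members with PBS (Tfam, Tfb1m and Polrmt, background 54.0%), for 0 with IL-4 (background 41.5%) and for 1 with IL-13 (Polg2, background 45.3%), so that the count was below the background share for all 3 treatments. With PBS, Tfam was at 19.6 to 26.4 CPM in microglia and 16.6 to 17.9 in macrophages, a log2 difference of 0.33 ± 0.17 (adjusted p = 0.163, edgeR). Tfb1m differed the same way, by 0.58 ± 0.30 (adjusted p = 0.162, edgeR), and Polrmt the other way, at 16.4 to 18.1 CPM in microglia and 18.8 to 26.1 in macrophages, by -0.39 ± 0.19 (adjusted p = 0.139). Lrpprc had the lowest p with PBS, with a log2 difference of -0.36 ± 0.16 (adjusted p = 0.108, edgeR). It was called without the PBS microglia of mouse 1, at -0.55 (adjusted p = 0.0206, edgeR). With IL-4 the lowest p belonged to Polg, at -0.62 ± 0.30 (adjusted p = 0.196, edgeR), which was called without the IL-4 microglia of mouse 8, at -1.05 (adjusted p = 0.00964). With IL-13 it belonged to Polg2, at 1.39 ± 0.62 (adjusted p = 0.147, edgeR), and it was 0.44 without the IL-13 microglia of mouse 6. Over the 9 mice, Tfam, Tfb2m and Polg2 were higher in microglia in 7 mice each, Tfb1m in 6, Nrf1 in 4, Polg and Slirp in 3 and Polrmt and Lrpprc in 2.

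The difference of the cytokine responses between the cell types, tested as an interaction over the 18 libraries, called 0 of 9 members for IL-4 against PBS, where 0.992% of all genes were called, 0 of 9 for IL-13 against PBS, where 0.0242% were, and 0 of 9 for IL-4 against IL-13, where 0.139% were. None had an unadjusted p under 0.05 in edgeR, and DESeq2's Wald test called none, with 1 at an unadjusted p under 0.05 for IL-13 against PBS. The intervals were wide, with a median half-width of 0.87 on the log2 scale in each of the 3, so that only Tfam, Polrmt, Lrpprc and Slirp had an interval within a 2-fold difference for IL-4 against PBS. The value farthest from 0 was that of Polg2 for IL-13 against PBS, 1.56 ± 0.80 (adjusted p = 0.926, edgeR), and it was 0.65 without the IL-13 microglia of mouse 6.

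Libraries of a group differed more in microglia than in macrophages for most members. With 1 library per mouse and cell type, differences between mice and between library preparations could not be told apart. Pooled over the 3 treatments, the SD between libraries on the log2 scale was 0.497 in microglia and 0.0913 in macrophages for Tfam, 0.734 and 0.128 for Tfb1m, 0.598 and 0.180 for Tfb2m, 0.578 and 0.130 for Nrf1, 0.493 and 0.150 for Polg and 0.764 and 0.169 for Polg2. For Polrmt it was 0.242 and 0.194, and for Lrpprc (0.194 and 0.202) and Slirp (0.359 and 0.366) it was slightly larger in macrophages. The microglia values of Tfb1m and Tfam include the low IL-13 library of mouse 7. It had 1.73 CPM of Tfb1m, against 8.56 and 8.4 in mice 5 and 6, and 9.94 CPM of Tfam, against 21.9 and 25.4. The spread was larger in microglia for 7 of the 9 members and for 77.1% of the 13010 genes tested in both cell types, whose median was 0.419 in microglia and 0.269 in macrophages. In macrophages the spread of every member but Slirp was under that median.

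**Figure D5:**
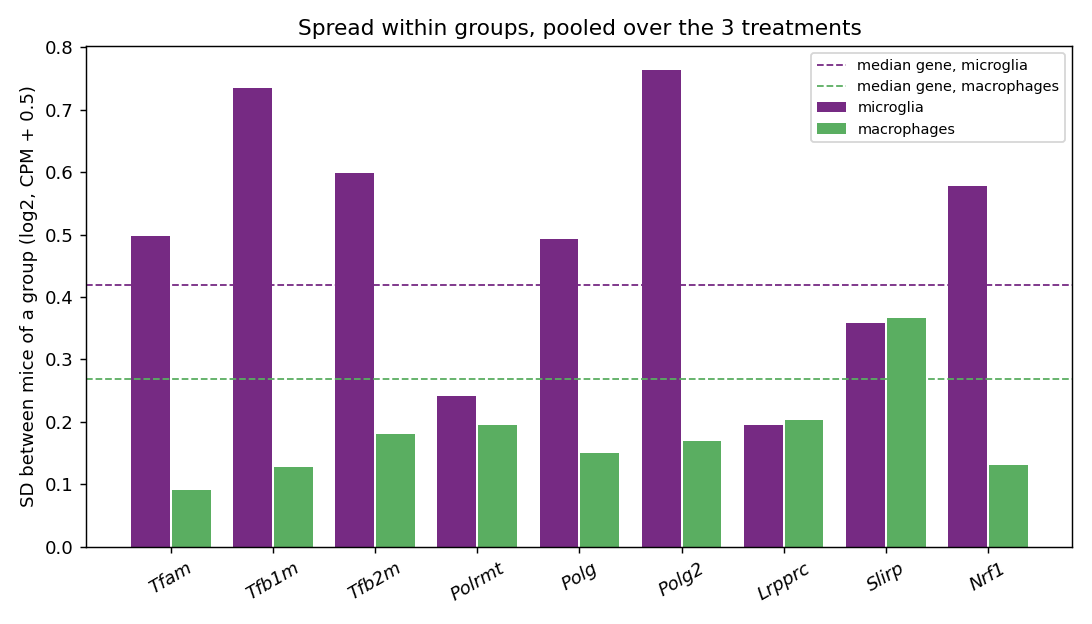
SD between the libraries of the 3 mice of a group, pooled over the 3 treatments, on the log2 scale of CPM + 0.5, for the 9 tested members in microglia and macrophages (bars from 0), with dashed lines at the medians of the 13010 genes tested in both cell types. Bars of Tfam, Tfb1m, Tfb2m, Nrf1, Polg and Polg2 are more than 3 times higher in microglia.

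Of 97 further nuclear genes of the same system, grouped in 5 lists, 9 of the 92 tested rose with IL-4 in macrophages, or 9.78% against the 14% of all genes called, and none fell. Among the nuclear regulators, 2 of 16 rose: Ppargc1b, which encodes the related coactivator PGC-1beta, by 1.94 ± 0.34 on the log2 scale (adjusted p = 0.00464, edgeR), and Pparg, a nuclear receptor of lipid metabolism, by 1.67 ± 0.30 (adjusted p = 0.00528). Ppargc1b was at 2.23, 2.20 and 1.95 CPM in PBS macrophages and at 9.49, 5.69 and 9.35 CPM in IL-4 macrophages, while Ppargc1a stayed at or near 0. Of the 18 abundant mitochondrial proteins, 4 rose with IL-4 in macrophages, led by the adenine nucleotide carrier Slc25a5 at 1.01 ± 0.13 (adjusted p = 7.83e-04, edgeR), and 1 of 94 genes of the 5 lists, Slc25a5, in microglia (2.22% of all genes called), at 1.06 ± 0.13 (adjusted p = 0.00563). The median over these 18 was 0.31 in macrophages and 0.32 in microglia. In the list of replication, repair and nucleotide supply 1 of 21 rose with IL-4 in macrophages, the nuclease gene Endog, by 1.19 ± 0.28 (adjusted p = 0.0183, edgeR), in that of elongation, termination and TFAM turnover 1 of 9, the protease gene Clpp, by 0.58 ± 0.15 (adjusted p = 0.0259), and in that of RNA processing 1 of 28, the rRNA methyltransferase gene Mrm1, by 0.73 ± 0.21 (adjusted p = 0.0469). With IL-13, 1 of 92 rose in macrophages, Slc25a5, by 0.75 ± 0.13 (adjusted p = 0.00937, edgeR), and 0 of 94 were called in microglia, where 4.19% and 0.366% of all genes were called.

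Between the cell types, 15 of 93 of these genes were DE with PBS (16.1% against 40.9% of all genes), 6 of 94 with IL-4 (6.38% against 23.4%) and 9 of 93 with IL-13 (9.68% against 26.7%), in both directions. The adenine nucleotide carrier Slc25a4 was higher in microglia with each treatment, by 1.31 ± 0.12 with PBS (adjusted p = 6.43e-05, edgeR), at 180.3, 198.7 and 177.4 CPM against 75.1, 67.3 and 76.6 CPM. Pparg was lower in microglia with each treatment, with a log2 difference of -3.47 ± 0.51 with PBS, and Tfeb, a regulator of lysosomal and mitochondrial genes, was lower with PBS (-1.68 ± 0.19) and with IL-4 (-1.38 ± 0.28). The called genes with the highest fitted fold were Prkaa2, a catalytic subunit gene of the energy sensor AMPK, and Mterf2, of the mitochondrial termination factor family, both higher in microglia. Prkaa2 was at 7.59, 2.68 and 3.81 CPM in IL-4 microglia and at 0.0238 to 0.0783 CPM in IL-4 macrophages. Mterf2 was at 4.15, 2.10 and 4.87 CPM in IL-4 microglia against 0 to 0.183 CPM in macrophages and at 3.63, 5.53 and 1.61 CPM in IL-13 microglia against 0.0293 to 0.0834 CPM in macrophages. With macrophage levels near that of 3 counts, these genes could pass the low-count filter only through microglia, where they were high, so that no fold or p is given and their place among the calls is no support for a difference. With PBS the dNTP hydrolase gene Samhd1 was also lower in microglia (-1.46 ± 0.22) and the helicase gene Twnk higher, by 0.99 ± 0.27 (adjusted p = 0.0184, edgeR).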

How the data were processed

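RNA of FACS-sorted microglia and macrophages (9 mice, 18 libraries) was amplified by SMART-seq2, which primes on poly(A), keeps no strand and carries no molecular identifiers. The authors aligned reads with STAR 2.5.3a to GRCm38 and deposited RSEM 1.3.0 expected counts per gene, per the submitters' processing notes, and the deposited values were whole numbers. All 18 columns were matched to samples. Genes were tested with edgeR 4.0.16 (R 4.3.3): filterByExpr, TMM, glmQLFit and glmQLFTest, Benjamini-Hochberg adjustment over all genes tested, and calls at an adjusted p of 0.05. Treatments were compared within a cell type (9 libraries), cell types within a treatment (6 libraries) and interactions over 18. SE and 95% intervals belong to the log2 fold change. Shares were compared by exact permutation over mice (SciPy 1.17.1). Spread used log2(CPM + 0.5). Gene positions came from GENCODE M21 and lengths from its principal transcripts. RefSeq gave the promoter windows. The scripts were tested on simulated data.

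The mouse pairs the cell types. Deviations of the 2 libraries of a mouse correlated at 0.044 to 0.167, and the mouse as a block was an alternative. Other alternatives were DESeq2 1.42.0, its size factors, other filters (none, or at least 10 counts in every library), mitochondrially encoded genes left out, fewer or more libraries in the fit, and each replicate left out. The members and lists were chosen with earlier results of these data known. All members were described. Genes named from the other lists were among the 3 called ones with the largest fold change per list and comparison, or of the 13 mitochondrial genes among the 3 with the lowest p. With totals of 35961305 to 45849829 counts, 1 count is a small part of any level above 1 CPM. The spread between the libraries of a group limits precision. With 1 library per mouse and cell type, differences between mice cannot be told apart from noise of sorting and amplification.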

Additional observations from a re-analysis of the deposited data

Results flagged for a closer look

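Twnk, the gene of the mitochondrial DNA helicase, was the gene of the lists whose IL-4 response passed the test for a difference between the cell types. It was at 15.97, 10.2 and 12.1 CPM in PBS microglia and at 3.10, 0.650 and 3.34 CPM in IL-4 microglia, whereas PBS macrophages had 7.46, 6.25 and 4.98 CPM and IL-4 macrophages 7.21, 8.61 and 7.76 CPM. All IL-4 microglia lay below every other library, including the IL-13 microglia at 10.0, 13.3 and 7.49 CPM. The difference between the 2 responses was -2.77 ± 0.64 (SE) on the log2 scale (95% interval -4.12 to -1.42, adjusted p = 0.0492, edgeR). Twnk was the 1 call among 94 tested genes of the 5 lists, or 1.06% against 0.992% of all genes. A count of 1 is thus near what the background gives. Within microglia the response was -2.41 and did not pass the test (adjusted p = 0.0812, edgeR), but it did with DESeq2 (adjusted p = 0.00198), with a stricter low-count filter of 10 per library (0.043) and in a single model of the 18 libraries (0.00521), and the adjusted p of the other alternatives ran from 0.0720 to 0.278. Within macrophages it was 0.33 (adjusted p = 0.371, edgeR) and passed under none of the alternatives. Over the alternatives the adjusted p of the difference ran from 0.00148 with DESeq2 to 0.151 without the PBS macrophages of mouse 3, and it was 0.0728 with the mouse as a block. In edgeR it was 0.0597 with no low-count filter and 0.0546 without mitochondrially encoded genes. Left out singly, each PBS library and each IL-4 macrophage library also took it above 0.05. The members themselves, Polg and Polg2 included, had no such difference past the test.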

How the results depend on the processing

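With 3 mice a group, differences under about 2-fold in microglia could not be resolved for most members, and the exact permutation tests could not pass 0.05 between treatments. The count of members called stayed at 0 under the alternatives in all 12 comparisons, except that it ran from 0 to 1 without a replicate between the cell types with PBS and with IL-4, for the 2 calls of Lrpprc and Polg given above. Of 1539 log2 fold changes of members, 91 changed sign, 2 were called and none of the latter had changed sign. With a replicate block of the mouse, the members called were 0 in the 6 comparisons that allow one, and Lrpprc differed by -0.37 with PBS (adjusted p = 0.0607) and Polg by -0.70 with IL-4 (adjusted p = 0.110, edgeR). Without a replicate, the IL-4 differences in microglia ran from -0.24 to 0.22 for Tfam, -0.33 to 0.12 for Tfb1m, -0.45 to 0.42 for Tfb2m, -0.0006211 to 0.24 for Polrmt and -0.26 to 0.24 for Slirp, and those in macrophages from -0.071 to 0.20 for Tfb2m, -0.19 to 0.050 for Polrmt, -0.18 to 0.026 for Polg and -0.22 to 0.26 for Slirp. The difference of Polg in microglia ran from -1.14 to -0.52, and the adjusted p of Tfb1m in macrophages ran over all alternatives from 0.0695 to 0.721 with IL-4 and from 0.105 to 0.919 with IL-13. The IL-13 difference of the mtDNA-encoded share in macrophages was -0.102 percentage points with rRNA and tRNA genes included and ran from -0.0177 to 0.0887 without a replicate. The IL-4 difference of the share in microglia ran from 4.64 to 7.55 points, that in macrophages from 0.291 to 0.580, and the share differences other than IL-13 against PBS in macrophages kept their direction. The cause of these changes was not tested.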
